A study of Mus musculus with 21 samples.

Results

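The 41 genes described here encode proteins that license and copy DNA, that carry a cell through mitosis, or that set the pace of entry into the cycle. They and the pathway lists below were chosen by gene symbol, with earlier results of these data known. Shares of all genes set beside their counts are therefore no independent test. All 41 have a feature of that name among the 31551 features of the Neuro2a expression table and among the 39006 of the mouse table. They were read in 3 classes, with 16 genes of the G1/S transition and DNA synthesis, 22 genes of G2 and mitosis (G2/M), and the 3 D-type cyclins Ccnd1, Ccnd2 and Ccnd3. In Neuro2a cells 40 members passed the filter on low values (at least 0.5 CPM, counts per 1000000 reads counted, in at least 6 libraries), all but Ccnd2. In the sorted nuclei 33 passed it (at least 0.5 CPM in at least 3 libraries), with 15 of the 16 G1/S genes, 15 of the 22 G2/M genes and the 3 D cyclins.

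Cells prepare to copy their DNA in G1, when CDC6 and CDT1 load the ring-shaped MCM helicase onto replication origins. D-type cyclins, and then cyclin E, activate kinases that release the E2F transcription factors from the retinoblastoma protein, and E2F factors drive the genes of DNA synthesis. The G2/M genes are transcribed later in the cycle, largely under the DREAM and B-MYB/FOXM1 complexes, and their products condense chromosomes, build the spindle and divide the cell. Cultured neuroblastoma cells cycle continuously, whereas mature cortical neurons have left the cycle for good.

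The study measured polyadenylated RNA in 21 libraries. Neuro2a, a mouse neuroblastoma line, was transfected with 750 ng of a plasmid for sadCas9-VP64, a nuclease-dead Cas9 joined to a transcriptional activator, either together with 750 ng of a guide RNA plasmid (CRISPRa, 6 libraries) or alone (VP64 only, 6 libraries). The library names of each Neuro2a group carry the number 7 or 8, with 3 libraries of each, and are called set 7 and set 8 below; the labels do not say what the number stands for. The other 9 libraries were made from NeuN-positive nuclei sorted from 200 mg of cortex of mice on a C57BL/6J background, with 3 libraries each from wild-type mice (WT), from Scn2a+/- mice (Het) and from Scn2a+/- mice injected in the medial prefrontal cortex with AAVs for sadCas9-VP64 and an Scn2a guide (Het_CRISPRa), used 4 weeks later. The labels give a treatment for the injected group alone, and they name neither the age of the mice, nor the promoters of the transgenes, nor whether a library pooled animals. All Neuro2a libraries come from 1 cell line, and nothing in the labels says that replicates were separate cultures, so p-values measure the spread between these libraries, which may be technical.

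Estimated depth was 15.5 to 21.0 M reads (M, 1000000) per Neuro2a library and 15.5 to 20.1 M reads per mouse library. The cells carried sympathetic neuroblastoma transcripts, with Hand2 at 324 to 380.1 CPM, and the nuclei carried neuronal ones, with Rbfox3, which encodes NeuN, at 260.3 to 358 CPM. The sadCas9-VP64 transcript stood at 2549.6 ± 83.7 CPM (SD, n = 3) in VP64 only and 1977 ± 256 CPM in CRISPRa in set 7, and at 349 ± 27.5 CPM and 599.8 ± 34.3 CPM in set 8. It was lower in set 8 in both groups, and CRISPRa had the lower mean in set 7 and the higher one in set 8. McherryPuro, another transgene, was absent (0 CPM) from every VP64-only library. Its CRISPRa mean was 1727 ± 181 CPM (SD, n = 3) for set 8, well under the 5296 ± 600 CPM for set 7. The treatments therefore differed in the guide RNA plasmid and in this transcript. Whether that plasmid carried McherryPuro was not determined here. The part of either transgene in the differences between sets or treatments was not tested. In bulk RNA, fewer cells in a phase of the cycle and less RNA of a gene per cell cannot be told apart.

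Motifs of cell cycle control were counted in the promoters of the 2 classes, and 6 promoters are printed as examples. They are a pair of helicase genes that held E2F and CCAAT matches, 3 mitotic genes that held CCAAT and CHR matches, and Cdk1, which held all 3. RefSeq promoter windows (GRCm38.p6, from 250 bases before to 50 bases after the start) were found for 32 of the 41 members, and the expression files use GRCm39, so the coordinates printed are those of GRCm38.p6 and were not carried over. The cell cycle homology element (CHR core, TTTGAA) was in 13 of 18 G2/M members (72.2%) and in 1 of 13 G1/S members (7.69%), beside 17.9% of all 32851 windows of the table. The CCAAT box (CCAAT) was in 16 of 18 G2/M members (88.9%) and 8 of 13 G1/S members (61.5%), beside 37.4% of all windows. An E2F core (TTTCCCGC, TTTCGCGC, TTTGCCGC or TTTGGCGC) was in 1 of 18 G2/M members (5.56%) and 6 of 13 G1/S members (46.2%), beside 2.26% of all windows. No test of the difference between the classes was run. Both strands were searched, and these matches are descriptions of letters, not of bound sites.

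The 160 bases before the start of Mcm5 and Mcm6, which are subunits of the replicative helicase, and of the mitotic genes Cdk1, Top2a, Kif11 and Ube2c read as follows, 5′ to 3′ on the strand of the gene, with E2F, CCAAT and CHR matches of either strand in capitals.
Mcm5, chr8:75109349-75109508, plus strand: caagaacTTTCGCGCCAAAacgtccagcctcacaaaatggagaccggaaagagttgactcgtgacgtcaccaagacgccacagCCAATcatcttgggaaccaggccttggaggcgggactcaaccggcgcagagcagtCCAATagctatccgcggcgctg
Mcm6, chr1:128359706-128359865, minus strand: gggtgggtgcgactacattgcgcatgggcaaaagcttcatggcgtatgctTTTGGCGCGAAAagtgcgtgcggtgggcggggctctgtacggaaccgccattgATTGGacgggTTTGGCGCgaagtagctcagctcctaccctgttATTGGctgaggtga
Cdk1, chr10:69352913-69353072, minus strand: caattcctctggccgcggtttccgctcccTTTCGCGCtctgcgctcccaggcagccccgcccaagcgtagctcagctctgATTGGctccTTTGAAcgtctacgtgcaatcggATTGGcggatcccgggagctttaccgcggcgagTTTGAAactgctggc
Top2a, chr11:99024190-99024349, minus strand: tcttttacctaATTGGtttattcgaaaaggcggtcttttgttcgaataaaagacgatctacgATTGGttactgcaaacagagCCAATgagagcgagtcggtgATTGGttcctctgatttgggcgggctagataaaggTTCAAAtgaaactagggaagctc
Kif11, chr19:37376222-37376381, plus strand: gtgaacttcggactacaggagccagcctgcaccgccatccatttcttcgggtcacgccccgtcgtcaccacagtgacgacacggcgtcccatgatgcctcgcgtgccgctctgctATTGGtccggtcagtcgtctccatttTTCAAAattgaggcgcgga
Ube2c, chr2:164769769-164769928, plus strand: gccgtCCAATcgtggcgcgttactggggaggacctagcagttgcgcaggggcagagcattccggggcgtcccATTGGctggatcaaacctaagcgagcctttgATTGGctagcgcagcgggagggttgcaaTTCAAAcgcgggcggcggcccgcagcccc
In Mcm5 a pair of overlapping E2F matches on opposite strands began 153 and 149 bases before the start, and in Mcm6 such a pair began 110 and 106 bases before it, with another match at 47 bases. Mcm5 also held CCAAT boxes at 77 and 22 bases, and Mcm6 at 57 and 14 bases. Top2a held 4 CCAAT boxes and a CHR 23 bases before the start, Kif11 had 1 box and a CHR at 19 bases, and Ube2c had 3 boxes and a CHR at 29 bases. Cdk1 carried an E2F match at 131 bases as well as a CHR at 71 and at 15 bases and a CCAAT box at 80 and at 48 bases.

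In Neuro2a cells all 16 G1/S genes were lower in set 8 than in set 7 in both treatment groups, beside 18.8% of all genes tested. With CRISPRa, 13 of the 16 were higher in set 7, beside 29.7% of all genes, and none was in set 8, beside 14.4%. Of the 22 G2/M genes, 18 were lower with CRISPRa in set 7, beside 17.0% of all genes, and 17 in set 8, beside 10.4%. Averaged over the 16 G1/S members, the level on the log2(CPM + 0.5) scale was 6.41 to 6.67 in CRISPRa set 7, 6.07 to 6.25 in VP64-only set 7, 5.44 to 5.52 in VP64-only set 8 and 5.29 to 5.34 in CRISPRa set 8, with no overlap between these groups of 3 libraries. Averaged over the 22 G2/M members, it was 6.75 to 6.88 in VP64-only set 7, 6.52 to 6.64 in VP64-only set 8, 6.46 to 6.59 in CRISPRa set 7 and 6.24 to 6.36 in CRISPRa set 8, so that the groups in the middle overlapped.

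**Figure D1:**
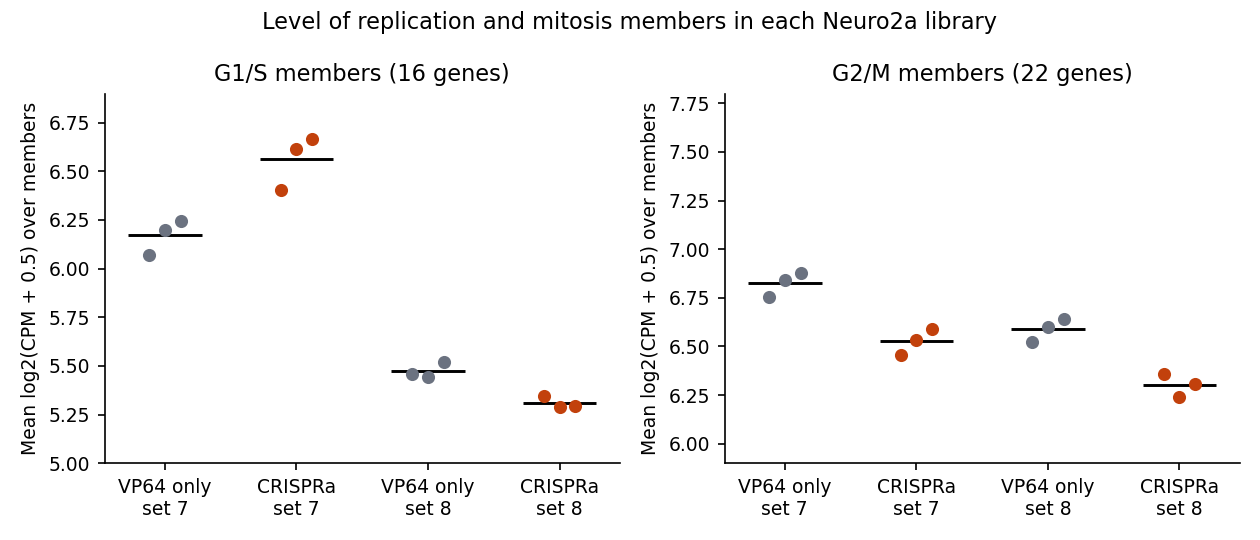
Mean log2(CPM + 0.5) over the 16 G1/S members (left) and the 22 G2/M members (right) in each of the 12 Neuro2a libraries; points are libraries, black lines are means of 3, and both y axes span the same range. The G1/S panel separates the library sets and the treatments within each set, with CRISPRa highest in set 7 and lowest in set 8, and the G2/M panel puts CRISPRa under VP64 only in both sets.

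Differences were tested with limma on log2(CPM + 0.5) over 14398 genes, and a member is said to be higher or lower where its Benjamini-Hochberg adjusted p was under 0.05. Values after a gene name are log2 differences on that scale. Between sets, within VP64 only, all 16 G1/S members were lower in set 8 (median -0.69) where 25.9% of all genes tested were lower. Within CRISPRa all 16 were again lower in set 8 (median -1.18), beside 33.4% of all genes. That comparison shares no library with the one within VP64 only, but both tests used the same estimate of spread. Of the 22 G2/M members, 18 were lower in set 8 within VP64 only and none was higher (median -0.25), where 19.9% of all genes were higher. Of the same 22, 17 were lower and 2 higher within CRISPRa (median -0.24), where 21.3% of all genes were higher and 54.7% were called either way. The median over all genes tested was -0.03 in VP64 only and -0.08 in CRISPRa. Libraries of the sets did not overlap for all 16 G1/S and 17 G2/M members in VP64 only, beside 54.5% of all genes, and for all 16 and 14 members in CRISPRa, beside 59.9%.

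The 16 G1/S calls in each group remained with any 1 library left out, and 11 of 18 G2/M calls in VP64 only and 13 of 19 in CRISPRa did. Within CRISPRa, the share of higher genes among all calls moved from 39.0% to 50.7% with median-of-ratios scaling and 50.0% with quantile scaling.

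**Figure D2:**
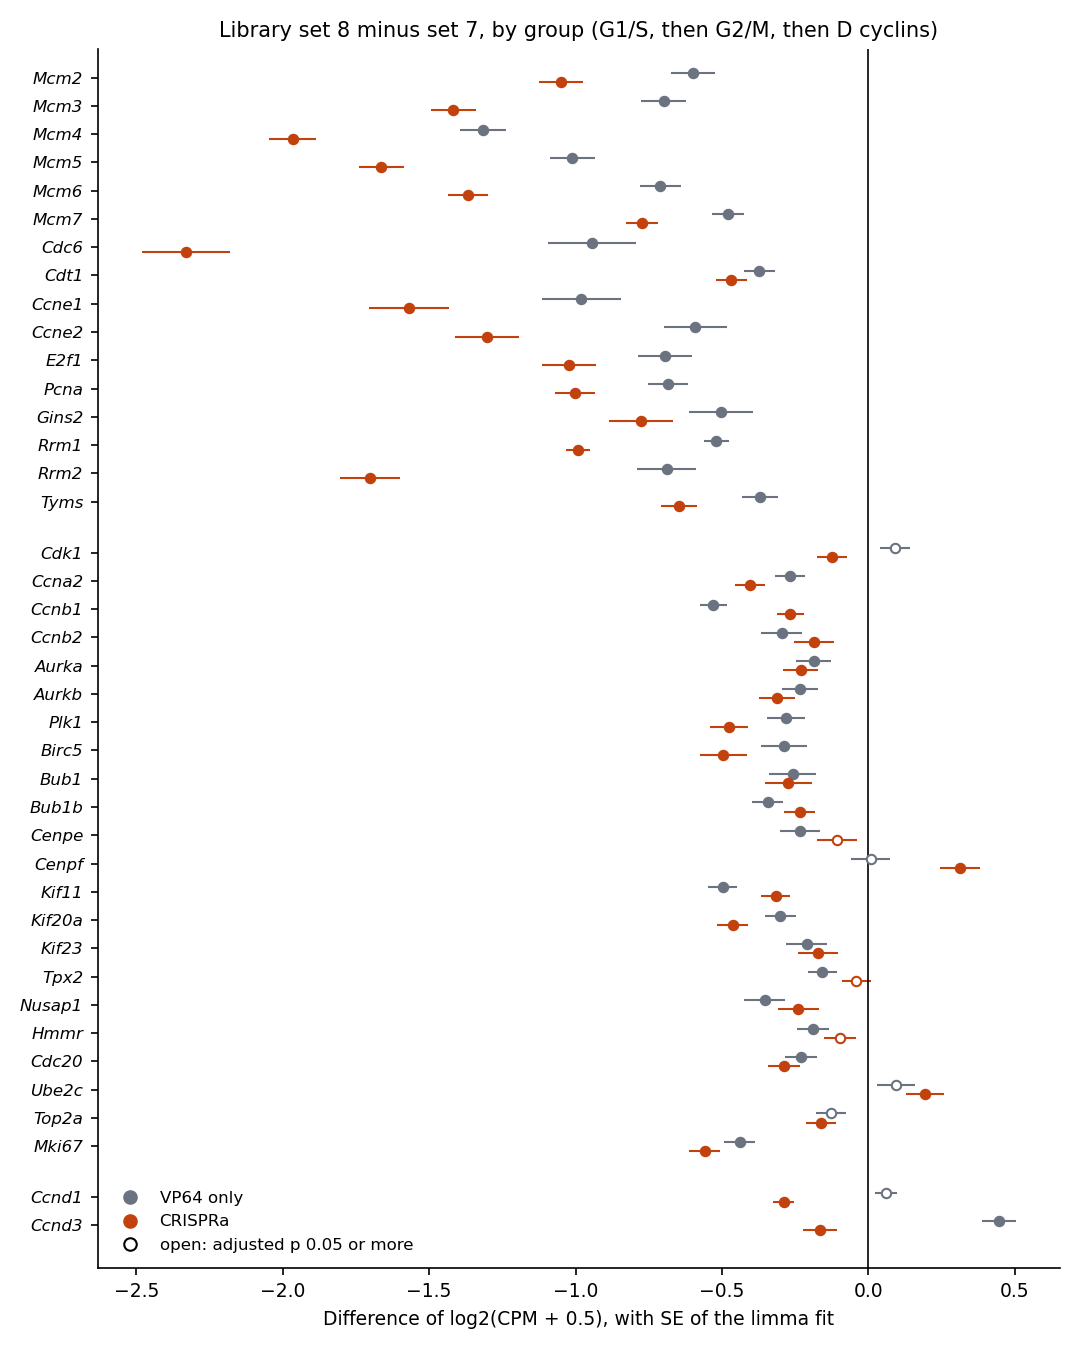
Difference between set 8 and set 7 in log2(CPM + 0.5) for the 40 members tested, in VP64-only (grey) and CRISPRa (orange) libraries; points are limma estimates, bars their standard errors, and open points have an adjusted p of 0.05 or more. All 16 G1/S members lie left of 0 in both groups and farther left in CRISPRa, while the G2/M members lie between -0.56 and 0.31.

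Between treatments, in set 7, 13 of 16 G1/S members were higher with CRISPRa and none was lower (median 0.39), beside 29.7% of all genes higher. In the same set 18 of 22 G2/M members were lower and none was higher (median -0.31), beside 17.0% of all genes lower. In set 8, 4 of 16 G1/S members were lower with CRISPRa and none was higher (median -0.12), and 17 of 22 G2/M members were lower and none was higher (median -0.27), beside 10.4% of all genes lower and 14.4% higher. The median over all genes tested was 0.09 in set 7 and 0.02 in set 8. The treatment groups did not overlap for 11 G1/S and 17 G2/M members in set 7, beside 54.2% of all genes, and for 4 and 19 in set 8, beside 38.4%. The treatment difference itself was lower in set 8 than in set 7 for 13 of 16 G1/S members (median -0.53), beside 12.3% of all genes. Among the 22 G2/M members it was lower for 1 and higher for 2 (median 0.01), where 9.42% of all genes were higher, so that G2/M calls were no more frequent than the background.

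Without CRISPRa replicate 6, 2 G1/S members remained lower in set 8. With median-of-ratios and quantile scaling, the share of higher genes among all calls moved from 63.6% to 47.6% and 49.0% in set 7 and from 58.0% to 45.4% and 48.1% in set 8, and for the difference between sets it moved from 43.3% to 58.3% with the former.

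**Figure D3:**
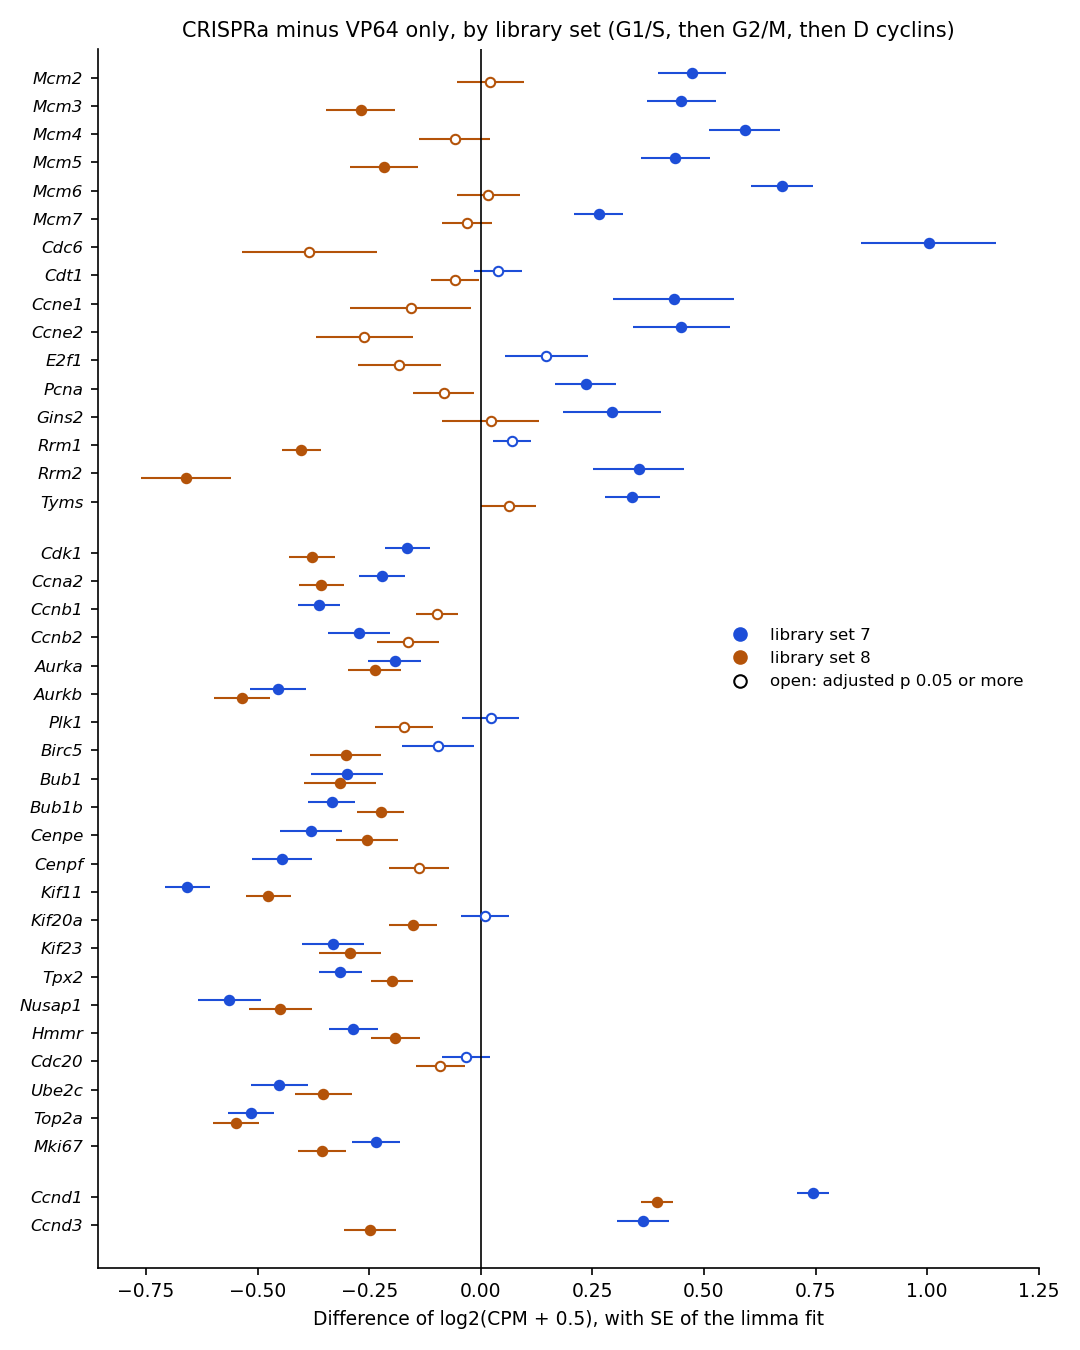
Difference between CRISPRa and VP64 only in log2(CPM + 0.5) for the 40 members tested, in set 7 (blue) and set 8 (brown); points are limma estimates, bars their standard errors, and open points have an adjusted p of 0.05 or more. The G1/S members lie right of 0 in set 7 and around or left of 0 in set 8, and most G2/M members lie left of 0 in both sets.

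All 6 genes of the MCM helicase, Mcm2 to Mcm7, were higher with CRISPRa in set 7, beside 29.7% of all genes. All 6 were lower in set 8 than in set 7 in both groups, beside 18.8% of all genes. For all 6 the treatment difference was lower in set 8, beside 12.3% of all genes, and Mcm7 lost that call with no filter on low CPM. Mcm5 stood at 104, 130.1 and 129 CPM with VP64 alone and 143, 166 and 181 CPM with CRISPRa in set 7. Mcm5 in set 8 stood at 59.5, 59.5 and 59.0 CPM with VP64 alone and 50.9, 51.9 and 50.2 CPM with CRISPRa. The 4 groups did not overlap, and set 8 VP64 only, at 59.4 ± 0.289 CPM (SD, n = 3), varied little. Its difference between treatments was 0.44 ± 0.077 (limma, SE, adjusted p = 9.89e-05) in set 7 and -0.22 ± 0.077 (adjusted p = 0.0447) in set 8, and the change between sets was -0.65 ± 0.11 (adjusted p = 0.000258). The call in set 8 was lost with 7 of the libraries left out one at a time, with an adjusted p of up to 0.111.

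Mcm6 was at 103, 112 and 129 CPM with VP64 alone and 165, 190.4 and 194 CPM with CRISPRa in set 7. Mcm6 in set 8 stood at 71.7, 66.6 and 70.7 CPM with VP64 alone and 69.8, 73.6 and 68.2 CPM with CRISPRa. In set 7 every CRISPRa library was above every VP64-only library, and in set 8 the groups overlapped. CRISPRa cells of set 7 held 1.60 times the Mcm6 of VP64-only cells (0.67 ± 0.070, limma adjusted p = 1.52e-07), whereas the value in set 8 was 0.02 ± 0.070 (adjusted p = 0.894). Mcm4 had the largest gap between sets in VP64 only and was at 67.0, 69.9 and 77.8 CPM with VP64 alone and 93.8, 109 and 123 CPM with CRISPRa in set 7. Mcm4 in set 8 stood at 27.4, 29.9 and 27.9 CPM with VP64 alone and 26.9, 28.7 and 26.1 CPM with CRISPRa. VP64-only cells of set 7 held 2.52 times the Mcm4 of those of set 8 (-1.32 ± 0.079, adjusted p = 7.15e-11), and CRISPRa cells 3.98 times (-1.97 ± 0.079, adjusted p = 6.22e-13).

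Mcm3 was at 102, 118 and 125 CPM with VP64 alone and 139, 162 and 171 CPM with CRISPRa in set 7. Mcm3 in set 8 stood at 73.8, 66.8 and 71.0 CPM with VP64 alone and 61.9, 60.0 and 53.6 CPM with CRISPRa. Like Mcm5 it was higher with CRISPRa in set 7 (0.45) and lower with it in set 8 (-0.27, limma adjusted p = 0.0136), and the groups did not overlap in either set. The set 8 call was lost without CRISPRa replicate 6 or VP64 replicate 4, with an adjusted p of up to 0.0838. Mcm2 was at 111, 130.0 and 134 CPM with VP64 alone and 159, 177 and 184 CPM with CRISPRa in set 7. Mcm2 in set 8 stood at 88.8, 79.7 and 78.6 CPM with VP64 alone and 76.3, 93.7 and 81.3 CPM with CRISPRa. It was higher in set 7 (0.47) and gave 0.02 in set 8. Mcm7, at 168 to 180.1 CPM in VP64 only and 191 to 225 CPM in CRISPRa of set 7 and 120.1 to 129 and 113 to 125 CPM in set 8, had the smallest difference of the 6 in set 7 (0.26), with -0.03 in set 8 and -0.48 and -0.77 between sets in VP64 only and CRISPRa. Ap4m1, which shares 7.25% of the exon bases of Mcm7 on the opposite strand, was lower with CRISPRa in set 7 (-0.51).

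Of the loaders of that helicase, Cdc6 had the largest treatment difference of any member in set 7, and Cdt1 had none past the test in either set. Cdc6 stood at 13.7, 12.9 and 11.1 CPM with VP64 alone and 21.6, 28.2 and 27.5 CPM with CRISPRa in set 7. Cdc6 in set 8 stood at 5.06, 6.09 and 7.96 CPM with VP64 alone and 5.29, 4.89 and 3.97 CPM with CRISPRa. CRISPRa cells of set 7 stood above all other libraries, and in set 8 the treatment groups overlapped. In set 7 the mean with VP64 alone was 12.6 ± 1.29 CPM and that with CRISPRa 25.8 ± 3.61 CPM (SD, n = 3), a ratio of 2.05 (1.00 ± 0.15, limma adjusted p = 1.7e-05). In set 8 the mean was 6.37 ± 1.47 CPM with VP64 alone and 4.72 ± 0.678 CPM with CRISPRa (-0.38 ± 0.15, adjusted p = 0.0703). The treatment difference changed between sets by -1.39 ± 0.21 (adjusted p = 0.000116). Cdt1, whose protein is destroyed at the start of S phase, was at 123 to 128 and 119 to 137 CPM in VP64 only and CRISPRa of set 7 and at 93.1 to 102 and 88.7 to 96.7 CPM in set 8. It was lower in set 8 in both groups (-0.37 and -0.47), and its treatment values were 0.04 and -0.06.

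The cyclin E genes, whose products drive CDK2 at the G1/S boundary, were both higher with CRISPRa in set 7, beside 29.7% of all genes. Ccne1 was at 17.5, 23.8 and 26.3 CPM with VP64 alone and 28.7, 31.6 and 30.1 CPM with CRISPRa in set 7. Ccne1 in set 8 stood at 11.4, 9.20 and 12.6 CPM with VP64 alone and 10.8, 8.37 and 10.5 CPM with CRISPRa. Ccne2 was at 23.7, 24.1 and 25.1 CPM with VP64 alone and 28.2, 34.0 and 38.7 CPM with CRISPRa in set 7. Ccne2 in set 8 stood at 17.8, 14.5 and 15.7 CPM with VP64 alone and 15.1, 12.2 and 12.6 CPM with CRISPRa. The differences in set 7 were 0.43 ± 0.14 and 0.45 ± 0.11 (limma adjusted p = 0.0126 and 0.00194), with no overlap between groups. In set 8 the groups overlapped, with values of -0.16 and -0.26, and the change between sets was -0.59 and -0.71. The Ccne1 call in set 7 was lost without VP64 replicate 1 (adjusted p = 0.111), and its change between sets was lost with 6 of the libraries left out one at a time (adjusted p up to 0.102). Ints8, which shares 17.4% of the exon bases of Ccne2 on the opposite strand, was at 45.6 to 76.2 CPM and was itself lower in set 8 in VP64 only and CRISPRa (-0.43 and -0.31), with treatment values of 0.14 in set 7 and, past the test, 0.25 in set 8. Reads in the bases that this pair shares cannot be told apart, since the sources used here do not give the strand of the counts. E2f1, the transcription factor whose own gene is an E2F target, stood at 49.1, 51.6 and 55.6 CPM with VP64 alone and 51.7, 60.7 and 61.2 CPM with CRISPRa in set 7. E2f1 in set 8 stood at 28.7, 30.9 and 36.8 CPM with VP64 alone and 27.8, 25.2 and 31.7 CPM with CRISPRa. Treatment groups overlapped in both sets. It was lower in set 8 in both groups (-0.69 and -1.02), and neither treatment value (0.15 and -0.18) nor their difference (-0.33, adjusted p = 0.0776) passed the test.

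At the replication fork, Pcna, the sliding clamp of the DNA polymerases, was higher with CRISPRa in set 7 (0.23) with -0.08 in set 8, and Gins2, a subunit of the active helicase, was higher by 0.29 with 0.02 in set 8. Pcna ranged over 117 to 134 CPM in VP64 only and 131 to 159 CPM in CRISPRa of set 7, which overlapped. Gins2 ranged over 52.0 to 55.5 and 60.4 to 72.7 CPM in the same groups, which did not overlap. In set 8 Pcna was at 74.7 to 80.8 and 69.1 to 79.5 CPM and Gins2 at 28.9 to 44.1 and 35.0 to 41.9 CPM, with overlap in each. The Pcna call was lost without CRISPRa replicate 3 (limma adjusted p = 0.0522). The Gins2 call was lost with 4 of the libraries left out one at a time, with an adjusted p of up to 0.148. Gins2 shares 67.3% of its exon bases with Gse1 on the opposite strand, and reads in those bases too cannot be told apart. Gse1 itself gave -0.06 in set 7 and was higher with CRISPRa in set 8 (0.13, adjusted p = 0.0275).

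The genes of nucleotide synthesis split. Rrm1 and Rrm2 encode the large and small subunits of ribonucleotide reductase, which makes the deoxynucleotides, and both were lower with CRISPRa in set 8. Rrm2 stood at 42.2, 52.2 and 58.3 CPM with VP64 alone and 53.9, 68.7 and 72.9 CPM with CRISPRa in set 7. Rrm2 in set 8 stood at 30.7, 30.6 and 32.2 CPM with VP64 alone and 19.3, 18.9 and 20.3 CPM with CRISPRa. The set 7 groups overlapped and the set 8 groups did not. It was higher with CRISPRa in set 7 (0.35 ± 0.10, limma adjusted p = 0.00731) and lower in set 8 (-0.66 ± 0.10, adjusted p = 6.38e-05), so that the treatment difference changed by -1.01 ± 0.14 (adjusted p = 5.09e-05). The set 7 call was lost without CRISPRa replicate 3 or VP64 replicate 1, with an adjusted p of up to 0.0692. Rrm1 was at 189, 196 and 201 CPM with VP64 alone and 196, 206 and 214 CPM with CRISPRa in set 7. Rrm1 in set 8 stood at 137, 135 and 136 CPM with VP64 alone and 104, 105 and 100.0 CPM with CRISPRa. It gave 0.07 ± 0.043 in set 7 and was lower in set 8 (-0.40 ± 0.043, adjusted p = 5.53e-07). Tyms, thymidylate synthase, stood at 60.9 to 66.7 CPM in VP64 only and 74.7 to 88.3 CPM in CRISPRa of set 7, where it was higher (0.34), and at 48.6 to 51.3 and 50.0 to 54.6 CPM in set 8 (0.06).

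**Figure D4:**
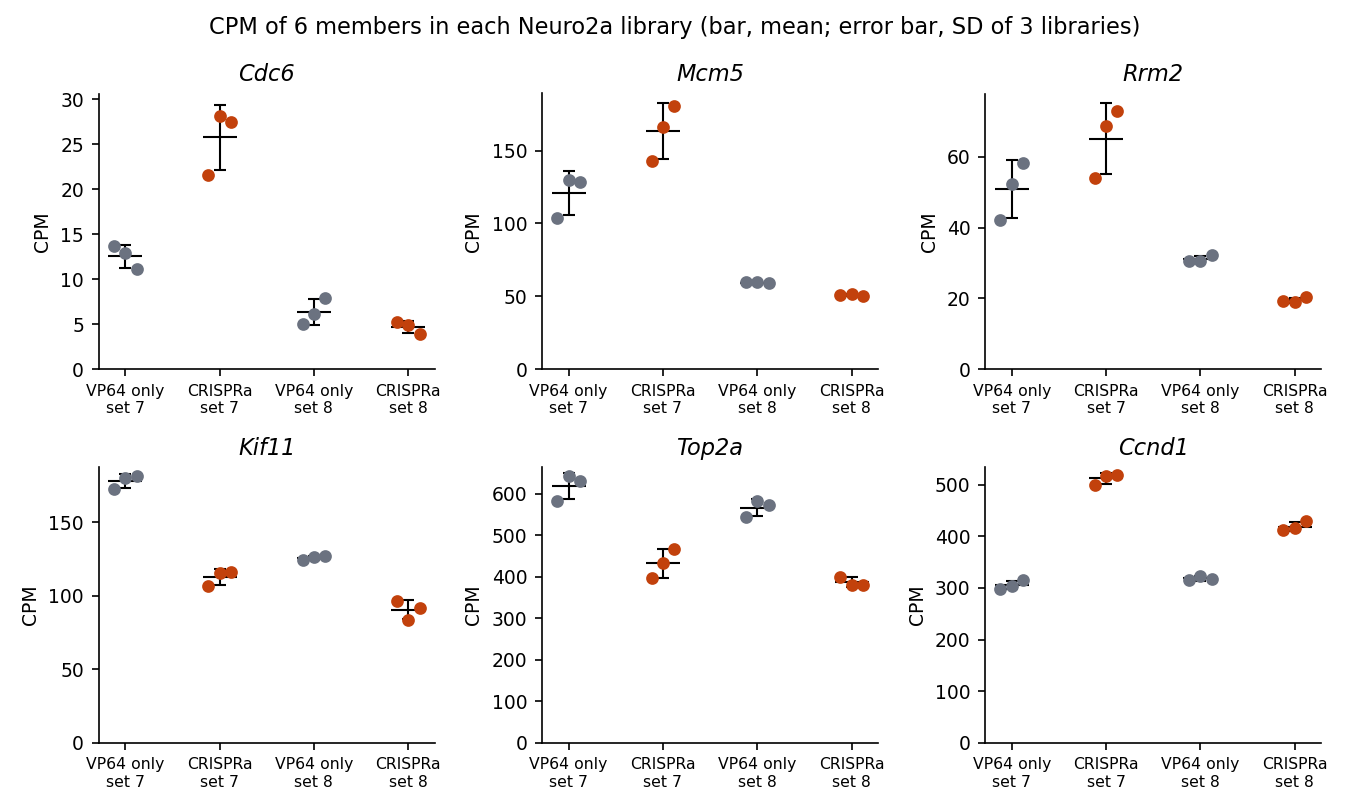
CPM of Cdc6, Mcm5, Rrm2, Kif11, Top2a and Ccnd1 in each of the 12 Neuro2a libraries; points are libraries, horizontal bars means and vertical bars SDs of 3 libraries, and every y axis starts at 0. Cdc6, Mcm5 and Rrm2 are highest in CRISPRa set 7 and lowest in CRISPRa set 8, Kif11 and Top2a are lower with CRISPRa in both sets, and Ccnd1 is higher with it in both.

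Among the mitotic genes, 15 of 22 were lower with CRISPRa in set 7 and again in set 8, beside 5.82% of all genes tested that were lower in both: Cdk1, Ccna2, Aurka, Aurkb, Bub1, Bub1b, Cenpe, Kif11, Kif23, Tpx2, Nusap1, Hmmr, Ube2c, Top2a and Mki67. These comparisons share no library, but their tests used the same estimate of spread, taken from all 12 libraries. Ccnb1, Ccnb2 and Cenpf were lower in set 7 alone by the test, Birc5 and Kif20a in set 8 alone, and Plk1 and Cdc20 in neither. Whether the sets differed was tested for each gene, and of these 7 the difference passed for Ccnb1 and Cenpf only.

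Of the engines of mitotic entry, Cdk1, the kinase that cyclins A and B activate, stood at 176, 189.7 and 199.5 CPM with VP64 alone and 157, 170.1 and 177 CPM with CRISPRa in set 7. Cdk1 in set 8 stood at 195, 202 and 204 CPM with VP64 alone and 158, 156 and 148 CPM with CRISPRa. The groups overlapped in set 7, where the value was -0.16 ± 0.051 (limma adjusted p = 0.0123), and did not in set 8, where it was -0.38 ± 0.051 (adjusted p = 1.36e-05). It was the G2/M member whose treatment difference was lower in set 8 (-0.21 ± 0.072, adjusted p = 0.039), a call lost with 7 of the libraries left out one at a time (adjusted p up to 0.120). Leaving out CRISPRa replicate 1 or VP64 replicate 3 ended the set 7 call, with an adjusted p of up to 0.0875. Ccnb1, cyclin B1, showed the other order, at 329, 349 and 356 CPM with VP64 alone and 251, 275 and 279 CPM with CRISPRa in set 7. Ccnb1 in set 8 stood at 236, 236 and 244 CPM with VP64 alone and 230.0, 210.2 and 228 CPM with CRISPRa. It was lower with CRISPRa in set 7 (-0.36 ± 0.047, adjusted p = 2.78e-06), gave -0.10 ± 0.047 in set 8 (adjusted p = 0.137), and differed between sets by 0.26 ± 0.067 (adjusted p = 0.00762).

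Ccna2, cyclin A2, which acts in S phase and G2, was at 101, 109.6 and 112 CPM with VP64 alone and 88.9, 91.0 and 96.6 CPM with CRISPRa in set 7. Ccna2 in set 8 stood at 87.6, 87.7 and 92.4 CPM with VP64 alone and 71.7, 67.0 and 70.0 CPM with CRISPRa. It was lower with CRISPRa in both sets without overlap (-0.22 ± 0.051 and -0.36 ± 0.051, limma adjusted p = 0.00131 and 2.77e-05). Exosc9, which shares 12.5% of the exon bases of Ccna2 on the opposite strand, was at 15.3 to 27.4 CPM, was higher with CRISPRa in set 7 (0.26) and gave 0.09 in set 8. Ccnb2, cyclin B2, was at 48.4, 53.4 and 51.3 CPM with VP64 alone and 41.0, 42.6 and 42.8 CPM with CRISPRa in set 7. Ccnb2 in set 8 stood at 40.0, 38.8 and 46.0 CPM with VP64 alone and 37.3, 34.5 and 39.3 CPM with CRISPRa. It was lower in set 7 (-0.27 ± 0.069, adjusted p = 0.00287), and in set 8 the groups overlapped (-0.16 ± 0.069, adjusted p = 0.094).

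Of the mitotic kinases and their partner survivin, Aurka and Aurkb were lower with CRISPRa in both sets, Birc5 by the test in set 8, and Plk1 in neither. Aurkb, the kinase of the chromosomal passenger complex that corrects chromosome attachment, stood at 56.0, 58.2 and 64.2 CPM with VP64 alone and 41.1, 45.1 and 43.5 CPM with CRISPRa in set 7. Aurkb in set 8 stood at 48.4, 50.7 and 52.3 CPM with VP64 alone and 36.1, 33.9 and 34.0 CPM with CRISPRa. The groups did not overlap in either set, and it was lower in both, with -0.46 ± 0.062 in set 7 and -0.53 ± 0.062 in set 8 (limma adjusted p = 5.27e-06 and 2.1e-06). Birc5, survivin, a partner of Aurkb in that complex, was at 37.4, 40.5 and 44.4 CPM with VP64 alone and 35.8, 39.1 and 39.2 CPM with CRISPRa in set 7. Birc5 in set 8 stood at 29.1, 35.8 and 35.1 CPM with VP64 alone and 26.6, 26.5 and 27.4 CPM with CRISPRa. It gave -0.10 ± 0.080 in set 7, where the groups overlapped, and was lower in set 8 (-0.30 ± 0.080, limma adjusted p = 0.00812), a call lost without VP64 replicate 5 (adjusted p = 0.0536). Aurka, which matures the spindle poles, was lower in both sets (-0.19 and -0.24), at 81.9 to 87.4 and 73.1 to 74.8 CPM in VP64 only and CRISPRa of set 7 and 66.3 to 78.7 and 61.1 to 65.9 CPM in set 8. Plk1, which drives centrosome maturation and mitotic entry, was at 65.9, 71.1 and 75.2 CPM with VP64 alone and 67.0, 75.4 and 73.1 CPM with CRISPRa in set 7. Plk1 in set 8 stood at 57.7, 59.8 and 56.7 CPM with VP64 alone and 55.1, 46.9 and 52.7 CPM with CRISPRa. Its treatment values were 0.02 ± 0.065 and -0.17 ± 0.065 (limma adjusted p = 0.808 and 0.0577), and it was lower in set 8 than in set 7 in both groups (-0.28 and -0.48).

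All 4 genes of the kinetochore and spindle checkpoint were lower with CRISPRa in set 7, beside 17.0% of all genes. None overlapped between groups there, as for 54.2% of all genes. Bub1 and Bub1b, kinases that hold anaphase until chromosomes attach, were lower with -0.30 and -0.33 in set 7 and -0.32 and -0.22 in set 8. Bub1b was at 115, 125 and 128 CPM with VP64 alone and 91.6, 97.1 and 103 CPM with CRISPRa in set 7. Bub1b in set 8 stood at 95.4, 97.3 and 96.9 CPM with VP64 alone and 79.8, 86.9 and 81.2 CPM with CRISPRa. Bub1 was at 76.3 to 89.9 and 61.9 to 73.7 CPM in VP64 only and CRISPRa of set 7 and 66.8 to 72.9 and 48.8 to 62.5 CPM in set 8. Cenpe, a kinetochore motor, was at 84.1, 89.1 and 82.6 CPM with VP64 alone and 63.1, 62.4 and 70.8 CPM with CRISPRa in set 7. Cenpe in set 8 stood at 65.3, 74.1 and 78.5 CPM with VP64 alone and 66.0, 57.1 and 59.2 CPM with CRISPRa. Both sets had less with CRISPRa (-0.38 ± 0.069 and -0.25 ± 0.069), although the groups of set 8 overlapped, and that call was lost without CRISPRa replicate 5 or VP64 replicate 6 (limma adjusted p up to 0.0685). Cenpf, which links kinetochores to microtubules, stood at 92.6, 97.0 and 96.8 CPM with VP64 alone and 70.6, 65.6 and 74.1 CPM with CRISPRa in set 7. Cenpf in set 8 stood at 85.1, 97.8 and 106 CPM with VP64 alone and 92.5, 81.6 and 87.7 CPM with CRISPRa. With CRISPRa it was lower in set 7 (-0.44 ± 0.067), overlapped in set 8 (-0.14 ± 0.067, adjusted p = 0.146), and was higher in set 8 than in set 7 within CRISPRa (0.31). Its change between sets, 0.31 ± 0.095 (adjusted p = 0.0262), was lost with 4 of the libraries left out one at a time, with an adjusted p of up to 0.0793.

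The spindle genes held the largest drop among G2/M members in set 7. Kif11, the kinesin that pushes spindle poles apart, stood at 173, 180.1 and 181 CPM with VP64 alone and 107, 116 and 116 CPM with CRISPRa in set 7. Kif11 in set 8 stood at 124, 126 and 127 CPM with VP64 alone and 96.3, 83.8 and 91.7 CPM with CRISPRa. Every CRISPRa library was under every VP64-only library of either set. Its treatment difference was -0.66 ± 0.050 in set 7 and -0.48 ± 0.050 in set 8 (limma adjusted p = 2.2e-09 and 5.07e-07), which is 0.633 and 0.719 times the VP64-only mean. Nusap1, which bundles spindle microtubules, was at 80.8, 87.4 and 82.9 CPM with VP64 alone and 52.8, 55.7 and 61.2 CPM with CRISPRa in set 7. Nusap1 in set 8 stood at 60.5, 65.6 and 70.3 CPM with VP64 alone and 52.9, 44.6 and 46.0 CPM with CRISPRa. It was lower in both sets (-0.56 ± 0.070 and -0.45 ± 0.070) with no overlap within a set. Kif23, a motor of the cleavage furrow (-0.33 and -0.29), Tpx2, the activator of Aurora A (-0.32 and -0.20), and Hmmr, a spindle-assembly protein (-0.29 and -0.19), were lower in both sets without overlap. In set 7 they ranged over 62.9 to 73.3, 191 to 213 and 108 to 116 CPM in VP64 only and 51.7 to 57.4, 157 to 174 and 87.9 to 93.9 CPM in CRISPRa, and in set 8 over 55.3 to 66.0, 182 to 186 and 92.0 to 106 CPM and 46.2 to 50.2, 156 to 166 and 81.9 to 90.5 CPM. The set 8 call of Hmmr was lost with 3 of the libraries left out one at a time (adjusted p up to 0.105). Kif20a, a kinesin of cytokinesis, was at 89.0, 93.7 and 98.3 CPM with VP64 alone and 91.1, 93.0 and 98.7 CPM with CRISPRa in set 7. Kif20a in set 8 stood at 76.7, 75.1 and 75.8 CPM with VP64 alone and 68.8, 64.0 and 72.1 CPM with CRISPRa. It gave 0.01 ± 0.053 in set 7 and was lower in set 8 (-0.15 ± 0.053, adjusted p = 0.041), a call lost with 6 of the libraries left out one at a time (adjusted p up to 0.199). It shares 29.3% of its exon bases with Cdc23 on the opposite strand, which gave -0.09 in set 7 and was lower in set 8 (-0.16, adjusted p = 0.0421).

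Ube2c, the ubiquitin-conjugating enzyme of the anaphase-promoting complex, stood at 134, 136 and 142 CPM with VP64 alone and 96.2, 103 and 101 CPM with CRISPRa in set 7. Ube2c in set 8 stood at 142, 148 and 150.2 CPM with VP64 alone and 127, 99.0 and 119.7 CPM with CRISPRa. It was lower with CRISPRa in both sets (-0.45 ± 0.065 and -0.35 ± 0.065, limma adjusted p = 9.09e-06 and 0.000398) with no overlap within a set. Ube2c and Cenpf were the 2 G2/M members that were higher in set 8 than in set 7 within CRISPRa, and the Ube2c call (0.19) was lost without CRISPRa replicate 1, 4 or 6 (adjusted p up to 0.125). Cdc20, the activator of that complex, was at 66.8 to 71.5 and 62.5 to 69.8 CPM in VP64 only and CRISPRa of set 7 and at 56.9 to 59.6 and 52.6 to 56.4 CPM in set 8. It gave -0.03 and -0.09, neither past the test (adjusted p = 0.651 and 0.248). Tnnc2, the opposite-strand neighbour that shares 22.8% of the exon bases of Ube2c, was at 0 to 0.179 CPM in Neuro2a.

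Both genes of chromosome structure were lower with CRISPRa in both sets, beside 5.82% of all genes. Top2a, the topoisomerase that untangles sister chromatids, stood at 582, 642 and 632 CPM with VP64 alone and 398, 433 and 468 CPM with CRISPRa in set 7. Top2a in set 8 stood at 544, 583 and 572 CPM with VP64 alone and 401, 379.5 and 380.1 CPM with CRISPRa. The VP64-only libraries of either set were above all CRISPRa libraries, and the treatment values were -0.52 ± 0.052 and -0.55 ± 0.052 (limma adjusted p = 9.32e-08 and 9.46e-08). The change between sets was -0.03 ± 0.073 (adjusted p = 0.787). Mki67, which coats mitotic chromosomes and is widely used as a proliferation marker, was at 253, 272 and 268 CPM with VP64 alone and 215, 223 and 236 CPM with CRISPRa in set 7. Mki67 in set 8 stood at 178, 206 and 202 CPM with VP64 alone and 161, 150.3 and 146 CPM with CRISPRa. It was lower with CRISPRa (-0.24 and -0.36), and lower in set 8 than in set 7 with -0.44 in VP64 only and -0.56 in CRISPRa, the largest gap between sets among G2/M members within CRISPRa.

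With both sets pooled, 6 libraries against 6, none of the 16 G1/S members passed the test (median 0.11), and 11 of 22 G2/M members were lower with CRISPRa and none higher (median -0.28), beside 5.02% of all genes lower, 10.0% higher and a median over all genes of 0.06. The 11 were Cdk1, Aurkb, Cenpe, Cenpf, Kif11, Kif23, Tpx2, Nusap1, Hmmr, Ube2c and Top2a. Over all 12 libraries, Aurkb, Kif11, Tpx2, Ube2c and Top2a did not overlap between treatments, beside 8.75% of all genes. With the replicate number as a block, 19 G2/M members were lower and 2 G1/S members, Mcm6 and Tyms, were higher (limma adjusted p = 0.0356 and 0.0261). Of all 14398 genes, 1648 were lower and 2865 higher with that block. Members lower with the block but not without it were Ccna2, Ccnb1, Ccnb2, Aurka, Birc5, Bub1, Bub1b and Mki67, with adjusted p from 0.000838 to 0.0385. The replicate numbers pair nothing beyond the library set. With the set as a covariate in place of the block, the same G2/M members were lower. Mcm2, Mcm4, Mcm6 and Tyms were then higher, where 3593 of all genes were higher and 2092 lower.

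Cenpf was lost from the 11 with 8 of the libraries left out one at a time, and Hmmr without VP64 replicate 1 or 2. The share of higher genes among all calls moved from 66.6% to 49.1% with median-of-ratios scaling and 51.2% with quantile scaling. In the authors' deposited table of CRISPRa against VP64, 16 of the 22 G2/M members had an adjusted p under 0.05, all with negative log2 fold changes. None of the 16 G1/S members did. The share of all genes past that limit there is not given here, so these counts have no background beside them. The authors' deposited table gave Kif11 -0.64 and Top2a -0.59.

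The D cyclins tie the cycle to growth signals, and the 2 that were tested matched neither class in every comparison. With CRISPRa, Ccnd3 was higher in set 7 and lower in set 8, as were the G1/S members Mcm3, Mcm5 and Rrm2. Ccnd1 stood at 299, 303 and 315 CPM with VP64 alone and 499.6, 517 and 519 CPM with CRISPRa in set 7. Ccnd1 in set 8 stood at 315, 324 and 317 CPM with VP64 alone and 412, 416 and 429 CPM with CRISPRa. Every CRISPRa library was above every VP64-only library, and the gain was 0.74 ± 0.037 in set 7 and 0.40 ± 0.037 in set 8 (limma adjusted p = 7.07e-12 and 7.51e-08). The gain was smaller in set 8 (difference -0.35 ± 0.052, adjusted p = 7.77e-05). LTO1 shares 23.4% of the exon bases of Ccnd1 on the opposite strand and was at 31.9 to 46.7 CPM. LTO1 was also higher with CRISPRa (0.36 in set 7 and 0.36 in set 8, limma adjusted p = 0.000282 and 0.000884). Reads in the bases that the pair shares cannot be told apart. Ccnd3 was at 81.8, 81.0 and 95.6 CPM with VP64 alone and 111, 114 and 107 CPM with CRISPRa in set 7. Ccnd3 in set 8 stood at 116, 116 and 119.8 CPM with VP64 alone and 100.0, 92.3 and 104 CPM with CRISPRa. It was higher with CRISPRa in set 7 (0.36 ± 0.058, adjusted p = 3.4e-05) and lower in set 8 (-0.25 ± 0.058, adjusted p = 0.00355), with no overlap in either set, and was the member whose VP64-only level was higher in set 8 (0.45). Its treatment difference changed between sets by -0.61 ± 0.082 (adjusted p = 2.86e-05). Within CRISPRa it was lower in set 8 (-0.17), a call lost without CRISPRa replicate 1, 2 or 5 (adjusted p up to 0.120). Ccnd2 was listed at 0 in the VP64-only libraries and at no more than 0.111 CPM with CRISPRa, and was not tested.

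Other genes of the same pathways were read from lists of 40 replication genes, 40 mitosis genes and 25 inhibitors and regulators, of which 23 passed the filter. Of the other replication genes, 36 were lower in set 8 within VP64 only (median -0.73), beside 25.9% of all genes, and 39 within CRISPRa (median -1.11), beside 33.4%, and none was higher in either. With CRISPRa in set 7, 22 were higher, beside 29.7% of all genes, and 3 lower, beside 17.0% (median 0.29). The higher ones included Orc1, of the origin recognition complex (1.02), Ung, uracil-DNA glycosylase (0.85) and the flap nuclease Fen1 (0.66). The 3 lower were E2f8 (-0.57) and E2f7 (-0.27), which repress E2F targets, and Dbf4 (-0.27), the activator of the CDC7 kinase. In set 8 none was higher and 13 were lower (median -0.16), beside 10.4% of all genes, among them thymidine kinase Tk1 (-0.79), E2f8 (-0.60), the dUTPase Dut (-0.47) and the primase subunit Prim1 (-0.44). The treatment difference was lower in set 8 than in set 7 for 21 of the 40, beside 12.3% of all genes, and higher for none.

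Of the other mitosis genes, 20 were lower and 2 higher with CRISPRa in set 7 (median -0.20), beside 17.0% and 29.7% of all genes. In set 8, 27 were lower and none higher (median -0.23), beside 10.4% and 14.4% of all genes. Aspm, which focuses spindle poles, was lower in both sets (-0.75 and -0.25), and the kinesin Kif18a was lower in set 7 (-0.63) with -0.14 in set 8. Cdca3 (-0.66) and the kinetochore gene Spc25 (-0.66) led in set 8, and gave -0.21 and -0.20 in set 7 without passing the test. Over both sets 10 were lower, beside 5.02% of all genes, and none higher (median -0.23), led by Aspm (-0.50), Ect2 (-0.35), Ncapd2 (-0.34) and Cks2 (-0.33).

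Among the inhibitors and regulators the calls went both ways, 6 higher and 4 lower with CRISPRa in set 7 and 3 higher and 4 lower in set 8, counts of 23 near the 46.7% and 24.8% of all genes called in those sets. Cdkn1a, the CDK inhibitor p21, was higher in both sets (0.65 and 0.53), with 51.2 to 54.3 CPM in VP64 only and 77.5 to 87.3 CPM in CRISPRa of set 7, and 48.3 to 54.0 and 68.0 to 75.7 CPM in set 8. Btg2, an antiproliferative gene, was higher in set 7 (0.84) with 0.12 in set 8. Rb1, the retinoblastoma protein that holds E2F, was lower in set 7 (-0.64) with -0.18 in set 8, and Cdkn1b, the inhibitor p27, was lower in set 7 (-0.35) with -0.10 in set 8. Mycn, a driver of many neuroblastomas, was higher with CRISPRa in set 7 (0.35) and lower in set 8 (-0.34), and Cdk4, the partner of D cyclins, did the same (0.18 and -0.33).

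In the sorted cortical nuclei 8 of the 22 G2/M members were near or at the limit of detection, and no member differed between groups by the test. In Het_CRISPRa the sadCas9-VP64 transcript was at 5.21 ± 1.67 CPM and McherryPuro at 1.63 ± 0.195 CPM (SD, n = 3). Both were at 0 in WT and Het. The share of nuclei that carried them was not measured here. The mouse table was normalised apart from the Neuro2a table, so levels are not compared across them, and CPM values are not divided by gene length, so they show detection and not the order of genes. Median CPM over the 9 libraries was under 0.5 for 9 members, from 0.5 to under 5 for 17, from 5 to under 20 for 11, and 20 or more for Gins2, Mcm7, Plk1 and Ccnd2. The 9 were Mcm3 and the G2/M genes Aurkb, Bub1, Ccnb1, Cdk1, Cenpf, Hmmr, Top2a and Ube2c. Cdk1 was listed at 0 in 7 of 9 libraries, with 0.0593 CPM in 1 Het and 0.119 CPM in 1 WT library, and Top2a was at 0 to 0.115 CPM. Mki67 was at 1.43, 1.27 and 2.19 CPM in WT, 1.01, 0.908 and 1.44 CPM in Het and 0.747, 0.992 and 1.67 CPM in Het_CRISPRa, groups that overlapped.

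**Figure D5:**
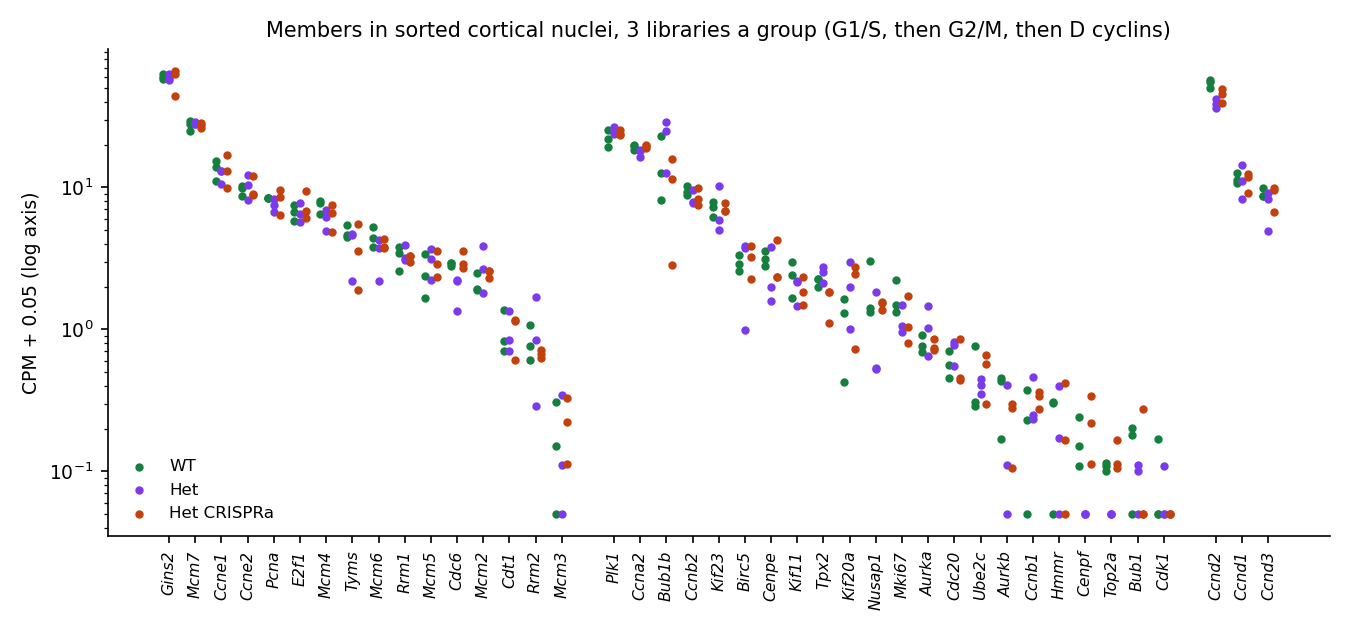
CPM + 0.05, on a log axis, of the 41 members in the 9 libraries of sorted cortical nuclei, ordered within each class by median; each point is 1 library of WT, Het or Het CRISPRa. Cdk1, Top2a, Bub1 and Cenpf lie at the foot of the G2/M class near 0, and Gins2, Mcm7, Plk1 and Ccnd2 lie at 20 CPM or more in median; CPM is not divided by gene length.

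Some members of the higher bins share exons with an opposite-strand neighbour that was itself present in the nuclei. Gse1, which covers 67.3% of the exon bases of Gins2, was at 88.4 to 125 CPM, Ints8, which covers 17.4% of Ccne2, at 39.5 to 64.6 CPM, Exosc9, which covers 12.5% of Ccna2, at 19.3 to 28.3 CPM, and Ap4m1, which covers 7.25% of Mcm7, at 82.7 to 113 CPM. Without the strand of the counts, reads in the shared bases of these pairs cannot be told apart. Gins2 at 44.3 to 65.7 CPM and Ccna2 at 16.4 to 19.8 CPM are therefore uncertain as levels of those genes. Of glia that can divide in the adult brain, the precursor markers Pdgfra and Cspg4 were at 0.111 to 0.708 and 0.121 to 0.965 CPM, and summed levels of the 4 microglial markers were 7.70 to 12.3 CPM in WT, 6.50 to 15.1 CPM in Het and 10.4 to 10.8 CPM in Het_CRISPRa. Summed levels of the 4 precursor markers were 1.55 to 4.12, 1.03 to 2.13 and 1.00 to 2.47 CPM in the same order. No marker of either list was at 0 in every library of a group, and their part in the members' values was not tested.

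Of 18967 genes tested in the nuclei, limma called 0.0% between Het and WT, 0.0422% between Het_CRISPRa and Het, and 0.00527% between Het_CRISPRa and WT, and no member among them. At an unadjusted p under 0.05 there were 951, 996 and 335 genes, and 1, 2 and 1 of the 33 members tested. Median differences were -0.01 for the 15 G1/S members and -0.07 for the 15 G2/M members between Het and WT, and -0.03 and -0.01 between Het_CRISPRa and Het. Among the members tested, groups did not overlap for Cdc6, Pcna and Ccnd2 between Het and WT, beside 10.7% of all genes, for Cdc6, Ccna2 and Tpx2 between Het_CRISPRa and Het, beside 9.98%, and for Tpx2 and Ccnd2 between Het_CRISPRa and WT, beside 7.13%. With 3 libraries a group, an exact permutation test cannot give a p under 0.1.

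Ccnd2, a D cyclin used by neural progenitors, had the smallest unadjusted p of the members between Het and WT. It stood at 50.1, 55.1 and 57.1 CPM in WT, 41.8, 38.9 and 36.4 CPM in Het and 45.7, 49.8 and 39.3 CPM in Het_CRISPRa. All Het libraries were under all WT libraries, and the Het_CRISPRa libraries were under all WT libraries and overlapped Het. The difference was -0.47 ± 0.12 between Het and WT (limma p = 0.00193, adjusted p = 0.875, exact permutation p = 0.1), -0.27 ± 0.12 between Het_CRISPRa and WT (adjusted p = 1) and 0.20 ± 0.12 between Het_CRISPRa and Het (adjusted p = 0.81). None of the 3 passed the test.

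Cdc6 was at 2.74, 2.89 and 2.90 CPM in WT, 1.30, 2.18 and 2.14 CPM in Het and 2.64, 3.53 and 2.84 CPM in Het_CRISPRa, with values of -0.52 ± 0.24 between Het and WT and 0.58 ± 0.24 between Het_CRISPRa and Het (limma adjusted p = 0.875 and 0.81). The Het libraries of Cdc6 were under all libraries of the other groups. Bub1b had the smallest unadjusted p between Het_CRISPRa and Het, at 8.17, 12.7 and 22.9 CPM in WT, 25.1, 12.5 and 29.0 CPM in Het and 2.81, 11.3 and 15.8 CPM in Het_CRISPRa. The groups overlapped, and the value between Het_CRISPRa and Het was -1.31 ± 0.52 (adjusted p = 0.81). Against WT it was -0.69 ± 0.52.

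The members with the next smallest unadjusted p had these values, none past the test. Tpx2 was at 2.21, 2.23 and 1.93 CPM in WT, 2.07, 2.48 and 2.69 CPM in Het and 1.78, 1.05 and 1.78 CPM in Het_CRISPRa, with -0.53 ± 0.25 between Het_CRISPRa and Het and -0.38 ± 0.25 between Het_CRISPRa and WT. Its Het_CRISPRa libraries were under all others. Nusap1 was at 1.37, 1.27 and 2.96 CPM in WT, 0.474, 0.484 and 1.79 CPM in Het and 1.32, 1.49 and 1.51 CPM in Het_CRISPRa, with -0.79 ± 0.37 between Het and WT and 0.57 ± 0.37 between Het_CRISPRa and Het. Kif20a was at 1.58, 1.26 and 0.373 CPM in WT, 2.94, 1.94 and 0.949 CPM in Het and 2.41, 0.671 and 2.68 CPM in Het_CRISPRa, with 0.64 ± 0.46 between Het and WT and 0.59 ± 0.46 between Het_CRISPRa and WT. These groups overlapped, and Cdc23, the neighbour that shares exons with Kif20a, was at 70.9 to 99.4 CPM. Mcm6 was at 4.35, 5.22 and 3.73 CPM in WT, 4.21, 3.69 and 2.14 CPM in Het and 4.25, 3.72 and 3.73 CPM in Het_CRISPRa, with -0.39 ± 0.25 between Het and WT. Plk1 was at 25.2, 21.8 and 19.3 CPM in WT, 25.5, 23.7 and 26.8 CPM in Het and 23.6, 25.5 and 23.5 CPM in Het_CRISPRa, with 0.20 ± 0.13 between Het and WT. Mcm6 and Plk1 overlapped between those groups. Ccna2 was at 19.8, 18.2 and 19.5 CPM in WT, 16.4, 18.1 and 18.4 CPM in Het and 19.7, 19.8 and 18.8 CPM in Het_CRISPRa, with 0.14 ± 0.12 between Het_CRISPRa and Het and no overlap between them. Tyms was at 5.43, 4.61 and 4.44 CPM in WT, 4.68, 4.54 and 2.14 CPM in Het and 5.51, 3.53 and 1.84 CPM in Het_CRISPRa, with -0.47 ± 0.35 between Het_CRISPRa and WT, and Mki67 gave -0.39 ± 0.29 between the same groups. In the authors' deposited tables of the mouse comparisons no member listed had an adjusted p under 0.05.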

How the data were processed

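Polyadenylated RNA was sequenced from 12 Neuro2a libraries and 9 libraries of sorted nuclei. The submitters' processing notes name mm39 (GRCm39) as the build and list STAR (2.7.8a), featureCounts, and DESeq2 (1.44) with R 4.4 as tools. The deposited tables by sample hold CPM per gene, and 70.8% to 73.2% (Neuro2a) and 79.9% to 82.4% (mouse) of values lay within 0.01 of whole reads, so no count test was run. The authors' deposited comparison tables hold log2 fold changes with p-values and adjusted p-values in DESeq2's columns, per the file headers.

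From the CPM, log2(CPM + 0.5) was tested with limma 3.58.1 in R 4.3.3 (trended variance, Benjamini-Hochberg adjustment over all genes tested). Genes needed 0.5 CPM in at least 6 Neuro2a or 3 mouse libraries, which left 14398 and 18967. Neuro2a was fitted as 2 groups of 6, and as 4 groups of 3 by treatment and library set with a test of the difference between sets. The 4 groups shared 1 estimate of spread, so tests within a set also drew on libraries of the other set. Mouse groups were fitted together. The fits were tested on simulated data. Same-numbered Neuro2a libraries over both sets had correlations of 0.305 to 0.499, above the limit of 0.1 for a pairing. Within sets these were -0.0708 to 0.0229, so the Neuro2a numbers pair nothing beyond the library set. The mouse range was -0.110 to 0.418, on both sides of that limit. Het with WT gave 0.337, 0.0339 and 0.418 for replicates 1, 2 and 3, and the other mouse values were -0.110 to 0.109. The mouse numbers were not taken as a pairing in the main fit.

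Library values are given for up to 8 members past the test with the largest log2 difference in each class and Neuro2a comparison, for the D cyclins, and in the mouse for the 6 smallest unadjusted p-values. Of the other pathway lists, up to 4 genes a direction are named, except where an item is not reported here. The members and lists were chosen with earlier results of these data known. Exon overlaps were read from GENCODE annotation of mouse, and promoters from RefSeq.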

Additional observations from a re-analysis of the deposited data

Results flagged for a closer look

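For 18 of the 40 members tested the difference between CRISPRa and VP64 only changed between library sets, by limma's test of the change itself. The same test called 21.8% of all genes, and calls among the G2/M members were no more frequent than that. On the log2(CPM + 0.5) scale, as the set 8 difference minus the set 7 difference, the MCM genes gave -0.45 (Mcm2), -0.72 (Mcm3), -0.65 (Mcm4), -0.65 (Mcm5), -0.66 (Mcm6) and -0.30 (Mcm7). Cdc6 gave -1.39, Ccne1 -0.59, Ccne2 -0.71 and Pcna -0.32. In nucleotide synthesis Rrm1 gave -0.47, Rrm2 -1.01 and Tyms -0.28. The mitotic members were Cdk1 at -0.21, Ccnb1 at 0.26 and Cenpf at 0.31, and the D cyclins gave -0.35 (Ccnd1) and -0.61 (Ccnd3). Leaving out 1 library at a time ended the call for Cdk1 in 7 cases, for Ccne1 in 6, for Pcna and Tyms in 5 each and for Cenpf in 4. With no filter on low CPM the calls of Ccne1, Cdk1, Cenpf, Mcm7, Pcna and Tyms ended. Median-of-ratios scaling ended those of Ccne1, Cdk1 and Tyms, and quantile scaling that of Ccne1. Sets 7 and 8 also differed in transgene level, and its part was not tested. No member's library stood far from the others of its group in the 80 groups of 4 to 10 libraries examined. Those groups joined both library sets, whose levels differed for many members, so a library far from its own set could be missed. The mouse groups, and each Neuro2a treatment within a set, were too small to be examined.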

How the results depend on the processing

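The alternatives were pseudocounts of 0.1 and 1, other filters on low CPM, median-of-ratios and quantile scaling, fits of fewer groups, the library set as a covariate, the replicate number as a block, and each library left out. No called value changed sign under any of them, and 384 of 13179 recomputed gene values that were past no threshold did. Over both Neuro2a sets, the set as a covariate gave 5685 genes past the threshold in place of 2166, of which 3593 were higher and 2092 lower. Among them 4 G1/S members were higher and 19 G2/M members lower. The replicate block, whose numbers pair nothing beyond the library set, gave 4513 genes, of which 2865 were higher and 1648 lower. Among these 2 G1/S members were higher and 19 G2/M members lower. Within sets, where the numbers pair nothing, the block ended the set 7 call of Gins2 and added Ccne2 in set 8 and E2f1 in the change between sets. With no filter on low CPM, 2 G1/S members were lower with CRISPRa in set 8, 1 G2/M member was higher in set 8 within CRISPRa, and the change between sets was higher for 1 G2/M member and lower for 0. Median-of-ratios scaling also left 0 G2/M members whose change was lower, and quantile scaling gave 1 G2/M member higher in set 8 within VP64 only. Median-of-ratios or quantile scaling ended the set 7 calls of Gins2, Pcna and Ccne1, and calls between sets of Ccnb2, Ccnd3, Cdk1, Kif23, Nusap1 and Top2a in CRISPRa and of Aurka, Bub1, Cenpe, Hmmr, Kif23 and Tpx2 in VP64 only. The cause of these shifts was not tested. With each library left out in turn, G1/S members lower in set 8 numbered 2 to 5, G2/M members higher in set 8 within CRISPRa 1 to 2, and G2/M members with a higher or lower change between sets 1 to 4 and 0 to 2. The higher count was 1 without CRISPRa replicate 2 or 4 or VP64 replicate 2 or 4 and 4 without CRISPRa replicate 5. In the nuclei, where no member passed the test, genes past the threshold between Het_CRISPRa and Het numbered 8, and 5 in a fit of those groups alone, 2 with no filter, 31 with the replicate block and 0 to 38 with a library left out. Between Het and WT there were 0, with 2 under the block and 0 to 1 with a library left out, and between Het_CRISPRa and WT 1, with 0 under the block or a pseudocount of 0.1 and 0 to 3 with a library left out. At the depth of the nuclei 3 reads are 0.149 to 0.193 CPM, so changes of Cdk1, Top2a and the other members near 0 were not detectable.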
